A study of Mus musculus with 12 samples.

Results

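The genes described here handle amino acid shortage. They are Cth and Cbs of cysteine synthesis, the transporter genes Slc38a4 and Slc7a11, the synthesis genes Asns and Psat1, and Chac1, Trib3, Sesn2 and Ddit3 of the stress response itself. These 10 genes were taken by symbol from the platform annotation, out of 18193 genes with a probe set of their own, and the probe set with the highest mean over 12 arrays stood for each gene. Cth and Slc38a4 were selected on their measured difference between radiation and control arrays, and the other genes were listed around them as known members of the same response. Lung RNA of wild-type mice had been hybridised to 12 Affymetrix arrays in 4 labelled groups of 3. The combined group had received a single dose of 25 Gy, with lungs taken 6 weeks later, and simvastatin at 10 mg/kg by 3 intraperitoneal injections a week before and after it. The radiation group had received the same dose without the drug, the simvastatin group the drug alone, and the control group vehicle. The labels give an age of 8 to 12 weeks for the first 3 groups and of 8 to 10 weeks for controls, so in any comparison with control the treatment and the age range cannot be told apart. They name neither the mouse strain nor the sex, and nothing in them says that the arrays of a group came from separate animals, so the spread behind the p-values may be technical.

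When amino acids run short, uncharged transfer RNA switches on the kinase GCN2, encoded by Eif2ak4. The kinase phosphorylates the initiation factor eIF2α, which lowers protein synthesis in general but lets the transcription factor ATF4 be made. ATF4 pairs with C/EBP proteins on short DNA elements and turns on genes that import and make amino acids, while CHOP, encoded by Ddit3, and Trib3 belong to the later, damaging arm of the same response. Cysteine has a place of its own, since it limits the synthesis of glutathione, an antioxidant that the lung keeps at a high level. It comes either from import of cystine by the Slc7a11 product or from homocysteine through the enzymes CBS and CTH.

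The composite element bound by ATF4 and C/EBP proteins carries the core TGATGNAA, where N is any base. Both strands of RefSeq promoter windows (GRCm38.p6, 250 bases before to 50 after a gene start) were searched for it, and overlap with other motifs was not considered. Of the 10 genes, 9 had a window in the table, with 12 windows among them. The core lay in 4 of the 12, in 1 window each of 4 genes, against 3.97% of all 32851 windows. Since these genes were listed as members of this pathway, the share is a description. The 4 stretches are shown because they carry the element by which genes of this response are usually recognised. They are printed 5′ to 3′ on the gene's strand, with the core, or its reverse complement TTNCATCA, in capitals.
Asns, chr6:7693210-7693277, minus strand: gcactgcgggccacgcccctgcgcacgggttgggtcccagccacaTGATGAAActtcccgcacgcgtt
Chac1, chr2:119351004-119351101, plus strand: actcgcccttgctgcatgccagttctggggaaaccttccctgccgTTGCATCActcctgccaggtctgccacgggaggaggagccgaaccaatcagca
Slc7a11, chr3:50443627-50443724, minus strand: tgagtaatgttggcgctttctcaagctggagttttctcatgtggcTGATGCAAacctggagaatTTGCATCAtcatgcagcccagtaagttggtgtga
Trib3, chr2:152344028-152344057, minus strand: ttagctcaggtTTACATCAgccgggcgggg
The core began 23 bases before the start of Asns, 193 before that of Chac1, and 66 and 47 before that of Slc7a11, while the match of Trib3 began at base 15 of the transcript. The windows of Slc38a4, Sesn2, Ddit3, Cbs and Psat1 held no match, which says only that these letters were not in these windows. The table has no window for Cth.

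Several arrays stood apart or went against their labels before any member was considered. Simvastatin 1, simvastatin 3 and combined 3 were near-identical, with an SD of their log2 differences of at most 0.118 over 10342 bright probe sets, against at least 0.336 in the other 63 pairs of arrays. Simvastatin 1 and 3 were averaged and counted as 1 sample, which left 11 samples in the tests, and combined 3 was kept as labelled. The SE, interval and p of combined minus simvastatin therefore treat combined 3 as independent of simvastatin 1 and 3, which may not hold. Cdkn1a, a target of p53 after DNA damage, read 13.19, 13.17 and 11.18 on the combined arrays, 13.12 to 13.42 on the radiation arrays, 11.09, 13.36 and 11.11 on the simvastatin arrays, and 10.25, 10.69 and 13.01 on the controls. The libraries labelled combined 3, simvastatin 2 and control 3 therefore carried p53 target levels opposite to their groups, and directions drawn from these groups below rest on the labels. Radiation 1, radiation 2 and control 3 had the lowest array medians, at 4.41 to 4.60 against 4.86 to 5.12 on the other 9, and lay at 105 to 141 on the first principal component, against -117 to -15.1 for the rest. The 9 lung genes averaged 12.86 on control 1, the lowest, and 13.35 to 13.91 on the other 11 arrays. Scgb1a1, of club cells, read 15.80 to 16.20 on all 12, while Rtkn2, of alveolar type 1 cells, read 9.18 on control 1 and 10.29 to 11.61 on the other 11. Liver markers, relevant because liver is the main site of Cth, Cbs and Slc38a4 expression, were at background on every array, with all 7 measured of 8 listed genes at or below 3.19, albumin (Alb) on radiation 2 being the highest.

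All values are log2 intensities of deposited probe sets, so differences are on the log2 scale. The filter for testing was 4.84, the median over the table, to be passed on at least 3 arrays. Of the 10 genes 7 met this, and Cbs, Trib3 and Slc7a11 did not. The limma fit over 11606 genes called 0 genes (0%) in each of the 6 comparisons at an adjusted p of 0.05. At an unadjusted p under 0.05 radiation minus control had 600 genes and combined minus control 327, while combined minus simvastatin had 153, simvastatin minus control 214, the interaction 377 and combined minus radiation 518. Among 11606 genes an unadjusted threshold passes many with no effect present, so nothing is read from these counts. None of the 7 tested members was called in any comparison.

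**Figure D1:**
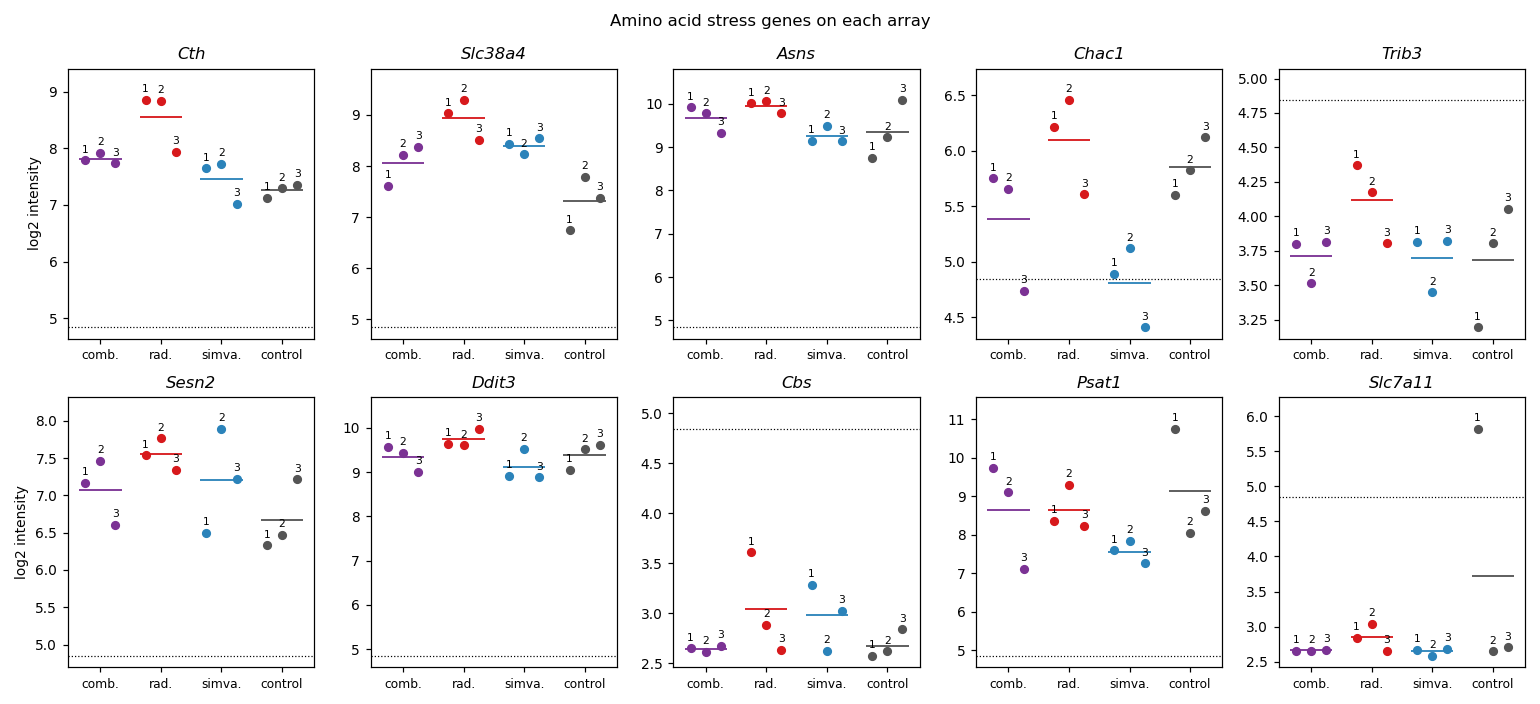
Log2 intensity (vertical axis) of each of the 10 genes on the 12 arrays, in the combined, radiation, simvastatin and control groups; the digit is the replicate number, the bar the mean of 3 arrays and the dotted line the filter at 4.84. Cth stands highest on radiation 1 and radiation 2 at 8.85 and 8.84, and Slc7a11 passes the filter on control 1 alone at 5.82.

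Cth encodes cystathionine gamma-lyase, which releases cysteine and can make hydrogen sulphide, and lies at chr3:157894248-157925081 (GRCm38.p6). It read 8.85, 8.84 and 7.94 on the radiation arrays, against 7.13, 7.30 and 7.36 on the controls. Every radiation array lay above every control array, but radiation 3 lay much closer to the controls than its group mates did. It averaged 8.55 ± 0.52 after radiation and 7.26 ± 0.12 in controls (SD, n = 3 each), a difference of 1.28 ± 0.26 (SE). This comparison is the one that brought Cth and Slc38a4 into the list, at rank 5 and rank 4 of 11606 genes by p, so its values describe the choice and are given without a test. On all tested genes, the radiation arrays lay wholly above the controls for 4.86% and wholly below for 2.03%, and 3 of 7 tested members, Cth, Slc38a4 and Sesn2, lay wholly above, from which nothing is read. Without control 3, radiation 1 and radiation 2, the arrays with the lowest medians, the difference for Cth was 0.73.

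With simvastatin added to radiation, Cth read 7.79, 7.92 and 7.73 on the combined arrays, below all 3 radiation arrays. The groups met closely, with combined 2 at 7.92 and radiation 3 at 7.94. The difference was -0.73 ± 0.26 (SE) with a limma adjusted p of 0.835. Of all tested genes 13.5% lay wholly lower and 3.7% wholly higher with the drug added. Wholly lower were 3 of 7 tested members, Cth, Slc38a4 and Ddit3, so the members' separation has a high background here. On the other probe sets of Slc38a4 and Ddit3 the combined and radiation arrays overlapped, so this count depends on the probe set. The radiation arrays that chose Cth also serve as the base of the Cth difference. Without control 3, radiation 1 and radiation 2 it was -0.13.

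Combined minus simvastatin shares no labelled array with the comparison that chose the members, and asks for the radiation effect in animals on the drug. The combined arrays, at 7.73 to 7.92, lay just above the simvastatin arrays, which read 7.65, 7.72 and 7.02 for Cth. The difference was 0.29 ± 0.30 (SE), with a 95% interval of -0.38 to 0.95 and a limma adjusted p of 0.99998. The interaction holds the comparison that chose the gene and is given without a test, at -0.998 ± 0.397 (SE). Of all tested genes 5.01% lay wholly higher and 4.68% wholly lower in the combined than in the simvastatin group, and 1 of 7 tested members, Cth, lay wholly higher. Without combined 3, the near-identical array, the difference was 0.33, and it was 0.44 without simvastatin 1, 0.48 without simvastatin 2 and 0.13 without simvastatin 3. Simvastatin minus control was 0.27 ± 0.30 (SE) for Cth, with overlap and a limma adjusted p of 0.990, and was 0.11, 0.075 and 0.42 without simvastatin 1, 2 and 3 in turn.

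The near-identical arrays give a measure of how far a single reading of these genes can move. Cth differed by 0.63 between simvastatin 1 and simvastatin 3, a wider gap than that of 98.9% of tested genes, whose median gap was 0.083. Sesn2 differed by 0.73, wider than 99.3% of genes, and Chac1 by 0.48, wider than 97.6%. The second probe set of Sesn2 read 5.46 on simvastatin 1 and 5.39 on simvastatin 3, so it did not share the wide gap. Asns and Ddit3 differed by 0.0066 and 0.038. The gap for Cth was larger than its difference between the combined and simvastatin groups.

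Slc38a4 encodes a sodium-coupled transporter of small neutral amino acids, best known from liver and placenta, and lies at chr15:96994816-97055956 (GRCm38.p6). It read 9.03, 9.29 and 8.51 on the radiation arrays, against 6.74, 7.79 and 7.38 on the controls. The groups did not overlap, and control 1 was the lowest of the 12 arrays. The means were 8.94 ± 0.40 after radiation and 7.31 ± 0.53 in controls (SD, n = 3 each), a difference of 1.64 ± 0.33 (SE) that, as for Cth, was part of the choice. Without control 3, radiation 1 and radiation 2 it was 1.24.

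In lungs given simvastatin without radiation, Slc38a4 read 8.43, 8.23 and 8.54 on the simvastatin arrays, all above the controls, a difference of 1.05 ± 0.37 (SE) with a limma adjusted p of 0.990. In this comparison 2.82% of genes lay wholly higher and 6.38% wholly lower, and among the 7 tested members 1 lay wholly higher and 2, Chac1 and Psat1, wholly lower. Because the control arrays are shared with the comparison that chose the gene, this difference is not independent of the choice. On the combined arrays Slc38a4 read 7.62, 8.21 and 8.38. Combined minus simvastatin, which shares no array with the choice, was -0.29 ± 0.37 (SE), with a 95% interval of -1.11 to 0.54 and a limma adjusted p of 0.99998. It was -0.061 without combined 1 and -0.44 without combined 3. The interaction, again given without a test, was -1.93 ± 0.49 (SE). Combined minus radiation was -0.88 ± 0.33 (SE) with a limma adjusted p of 0.835, and -0.44 without control 3, radiation 1 and radiation 2. The radiation arrays that chose Slc38a4 serve as the base here too, so this difference is not independent of the choice.

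The other probe set of Slc38a4 gave a different picture on radiation 3. It read 7.75, 7.88 and 6.30 on the radiation arrays, against 4.003, 6.27 and 6.49 on the controls, so there the groups overlapped. On the combined arrays it read 5.93, 6.31 and 6.32, against 6.31, 6.47 and 6.18 on the simvastatin arrays. Both probe sets put radiation 1 and radiation 2 highest and control 1 lowest.

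**Figure D2:**
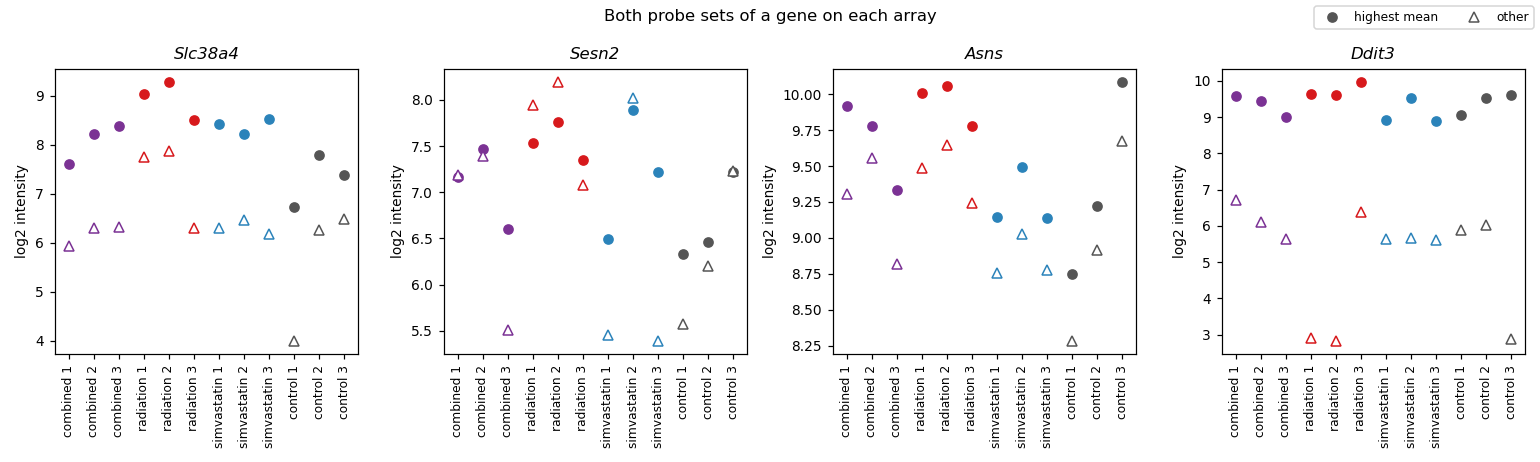
Log2 intensity (vertical axis) of both probe sets of Slc38a4, Sesn2, Asns and Ddit3 on the 12 arrays (horizontal axis), with filled circles for the probe set of highest mean and open triangles for the other. The pair of Asns runs in parallel, while the second probe set of Ddit3 stands at 2.83 to 2.90 on radiation 1, radiation 2 and control 3 and at 5.61 to 6.72 on the other 9 arrays.

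The genes whose pattern was most like that of Cth over the 11 samples were Vapa, a membrane contact protein gene, with a Pearson r of 0.931, the tissue factor gene F3 with 0.908, and Fam107a, a glucocorticoid-induced gene, with 0.906. Fam107a read 12.90, 12.60 and 10.89 on the radiation arrays, against 7.37, 8.08 and 10.25 on the controls. Those most like Slc38a4 were the Golgi protein gene Golph3 with an r of 0.951, the lymphatic growth factor gene Vegfc with 0.940 and the Ras exchange factor gene Sos2 with 0.936. These are the 3 highest values of each out of 11606 genes on shared arrays, and are given as descriptions. Cth also had an r of 0.763 with the mean of the liver markers, which were at background, and of -0.704 with the array median. For Slc38a4 these were 0.728 and -0.613. The mean level of 7 glucocorticoid-responsive genes, all 7 measured, lay at 10.64 to 12.17 on the combined arrays, 12.00 to 12.49 on the radiation arrays, 10.67 to 11.43 on the simvastatin arrays and 9.95 to 11.18 on the controls. It was highest on radiation 1 and radiation 2, as Cth was. The list holds Fam107a, named above for its likeness to Cth, so this resemblance is partly built in. The 7 genes did not all follow the mean. Per1 read 8.65 and 9.58 on radiation 1 and radiation 2, against 10.22 on radiation 3. Fkbp5 read 11.77 on control 1, against 12.01 and 11.75 on radiation 1 and radiation 2. The part of these genes in the level of Cth was not tested.

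Cbs encodes cystathionine beta-synthase, the step before Cth. It was at 2.62 to 2.68 on the combined arrays, 2.64 to 3.61 on the radiation arrays, 2.63 to 3.29 on the simvastatin arrays and 2.57 to 2.84 on the controls. Both of its probe sets stayed below the filter on all 12 arrays, so no difference is given.

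Asns makes asparagine from aspartate and is a standard readout of ATF4. It read 10.01, 10.06 and 9.78 on the radiation arrays, against 8.75, 9.22 and 10.09 on the controls. The array labelled control 3 reached the radiation level and the other 2 controls lay below it. The difference was 0.60 ± 0.32 (SE), and 0.96 without control 3 or 0.29 without control 1. On the combined arrays it read 9.92, 9.78 and 9.33, against 9.14, 9.49 and 9.14 on the simvastatin arrays. Combined 3 lay inside the simvastatin range, and the difference was 0.36 ± 0.35 (SE; limma adjusted p = 0.99998). It was 0.24 without combined 1, and 0.71 without combined 3, simvastatin 2 and control 3 together. Those arrays stood out by p53 targets, and without them simvastatin 1 and 3, averaged, were the only simvastatin sample. Combined minus radiation was -0.27 ± 0.32 (SE; limma adjusted p = 0.879), or -0.10 without combined 3. Simvastatin minus control was -0.037 ± 0.354 (SE; limma adjusted p = 0.996), and ran from -0.34 without control 1 to 0.33 without control 3. The second probe set of Asns had an r of 0.968 with the first over 11 samples.

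Sesn2 encodes sestrin 2, a leucine sensor that restrains growth signalling and that p53 also turns on. It read 7.54, 7.76 and 7.34 on the radiation arrays, against 6.33, 6.47 and 7.22 on the controls. The groups did not overlap, and control 3 was the highest control. The difference was 0.88 ± 0.36 (SE), from the comparison that chose the list. On the combined arrays Sesn2 read 7.16, 7.46 and 6.61, against 6.50, 7.89 and 7.22 on the simvastatin arrays. Simvastatin 2 was the highest of the 12 arrays, and combined 3 was the lowest combined array. Combined minus simvastatin was -0.30 ± 0.40 (SE; limma adjusted p = 0.99998), and 0.45 without combined 3, simvastatin 2 and control 3. Those arrays stood out by p53 targets, and p53 also turns on Sesn2, so 0.45 is not independent of their choice. It also rests on the average of simvastatin 1 and 3 as the only simvastatin sample. With single arrays left out, combined minus simvastatin ran from -0.49 without combined 2 to 0.22 without simvastatin 2. The second probe set of Sesn2 spanned a wider range. It read 7.19, 7.40 and 5.51 on combined arrays and 7.95, 8.20 and 7.08 on radiation arrays. It read 5.46, 8.02 and 5.39 on simvastatin arrays, and 5.57, 6.20 and 7.23 in controls. Radiation 3, at 7.08, lay below control 3, at 7.23, so on this probe set the radiation and control groups overlapped. There simvastatin 3, at 5.39, was the lowest of the 12 arrays. Combined minus radiation was -0.47 ± 0.36 (SE; limma adjusted p = 0.835) for Sesn2, or -0.23 without combined 3. Simvastatin minus control was 0.70 ± 0.40 (SE; limma adjusted p = 0.990), and 0.19 without simvastatin 2.

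Asns and Sesn2 were set beside p53 targets on each array. The mean of 6 p53 check genes, all 6 measured, was 9.20 to 10.95 on the combined arrays, 11.11 to 11.25 on the radiation arrays, 9.23 to 11.23 on the simvastatin arrays and 8.998 to 11.05 on the controls. On single arrays it stood at 9.20 on combined 3, 11.23 on simvastatin 2 and 11.05 on control 3, the arrays that went against their labels. Asns lay at 9.49 to 10.09 on the 7 arrays with Cdkn1a at 13.01 or above and at 8.75 to 9.33 on the other 5. Sesn2 lay at 7.16 to 7.89 on the first 7 and at 6.33 to 7.22 on the other 5, where simvastatin 3 alone overlapped them. The other 5 include combined 3, simvastatin 1 and simvastatin 3, which were near-identical and may not be separate samples. Over 11 samples Asns had an r of 0.885 with Cdkn1a. Its r was 0.934 with the mean of unfolded protein response genes and 0.895 with that of glutathione genes, both lists described below. For Sesn2 these were 0.915, 0.686 and 0.584. The part of p53 activity in these levels was not tested.

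**Figure D3:**
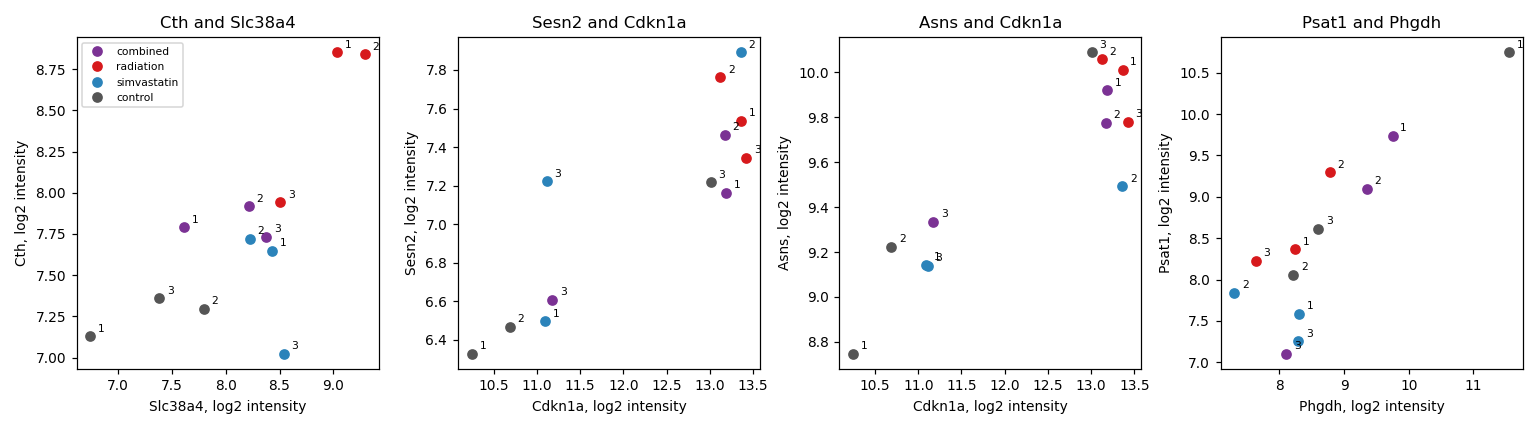
Log2 intensities of pairs of genes on the 12 arrays, with Slc38a4, Cdkn1a, Cdkn1a and Phgdh on the horizontal axes and Cth, Sesn2, Asns and Psat1 on the vertical axes; colours are groups and digits replicates. Asns lies at 9.49 or above on the 7 arrays with high Cdkn1a and at 9.33 or below on the other 5, Sesn2 is lower on those 5 except on simvastatin 3 at 7.22, and Psat1 and Phgdh share their highest array, control 1. Those 5 include the near-identical combined 3, simvastatin 1 and simvastatin 3.

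Psat1 encodes the aminotransferase of serine synthesis. It read 8.36, 9.30 and 8.22 on the radiation arrays, against 10.75, 8.05 and 8.61 on the controls. Control 1 was the highest of all arrays. The radiation difference was -0.51 ± 0.79 (SE), and ran from -1.05 without control 2 to 0.29 without control 1. On the combined arrays it read 9.74, 9.09 and 7.10, against 7.59, 7.84 and 7.26 on the simvastatin arrays, a difference of 1.02 ± 0.88 (SE; limma adjusted p = 0.99998) that was 0.47 without combined 1 and 1.79 without combined 3. Simvastatin minus control was -1.51 ± 0.88 (SE; limma adjusted p = 0.990), with all simvastatin arrays below all controls, and -0.70 without control 1. Combined minus radiation was 0.018 ± 0.79 (SE; limma adjusted p = 0.998), and ran from -0.53 without combined 1 to 0.79 without combined 3.

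Phgdh, the first enzyme of the same pathway, was highest on the same arrays as Psat1, at 9.75 on combined 1, 11.55 on control 1 and 7.30 to 9.35 on the other 10 arrays. T cell and thymocyte markers, 7 of 8 measured, stood at a mean of 7.83 on combined 1 and 11.72 on control 1, against 3.56 to 4.60 on the other 10 arrays. Psat1 also read 9.30 on radiation 2 and 9.09 on combined 2, where this mean was 4.11 and 4.60. Over 11 samples the r of Psat1 was 0.822 with this mean, 0.744 with that of fat genes and 0.72 with that of skeletal muscle genes. Rag1, which developing lymphocytes use to rearrange receptor genes, read 11.05 on combined 1, 14.42 on control 1 and at most 2.33 elsewhere. In bulk tissue more cells of a type and more RNA per cell cannot be told apart, and the part of these cells and tissues in the level of Psat1 was not tested.

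Slc7a11 encodes the cystine importer, which ATF4 and the oxidative stress factor Nrf2 both induce. It read 2.66, 2.66 and 2.67 on the combined arrays, 2.84, 3.04 and 2.66 on the radiation arrays, 2.67, 2.58 and 2.69 on the simvastatin arrays, and 5.82, 2.65 and 2.71 on the controls. It was above the filter on control 1 alone. The second probe set was also highest on control 1, at 2.98 against 1.91 to 1.99 elsewhere. Combined 1, the other array with high Rag1, did not share this level. Both of its promoter cores stood beside a gene that was at background on 11 of 12 arrays.

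Chac1 encodes an enzyme that breaks down glutathione and is a sensitive target of ATF4. It read 4.89, 5.12 and 4.41 on the simvastatin arrays, against 5.60, 5.82 and 6.12 on the controls, and the groups did not overlap. The difference was -0.97 ± 0.41 (SE) with a limma adjusted p of 0.990. Simvastatin 3 and combined 3 lay under the filter, so the lower end is close to background. On the combined arrays it read 5.75, 5.66 and 4.74, and combined minus simvastatin was 0.50 ± 0.41 (SE; limma adjusted p = 0.99998), or 0.31 without combined 1 and 0.82 without combined 3. On the radiation arrays it read 6.22, 6.46 and 5.61, overlapping the controls, a difference of 0.24 ± 0.37 (SE) that was 0.52 with arrays centred on their medians and -0.11 without control 3, radiation 1 and radiation 2. With single arrays left out it ran from 0.060 without radiation 2 to 0.49 without radiation 3. Combined minus radiation was -0.71 ± 0.37 (SE; limma adjusted p = 0.835), or -0.39 without combined 3.

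Trib3 encodes a pseudokinase that restrains the response. It was at 3.51 to 3.81 on the combined arrays, 3.803 to 4.37 on the radiation arrays, 3.45 to 3.82 on the simvastatin arrays and 3.19 to 4.06 on the controls. All 12 values lay below the filter. Radiation 1, radiation 2 and control 3, the arrays of lowest median, held the 3 highest values.

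Ddit3 encodes CHOP, which promotes cell death in prolonged stress. It read 9.64, 9.61 and 9.98 on the radiation arrays, against 9.06, 9.51 and 9.62 on the controls, a difference of 0.35 ± 0.24 (SE) with overlap. The combined arrays, at 9.57, 9.44 and 9.01, all lay below the radiation arrays, a difference of -0.41 ± 0.24 (SE; limma adjusted p = 0.835). The simvastatin arrays read 8.92, 9.53 and 8.88, and combined minus simvastatin was 0.12 ± 0.27 (SE; limma adjusted p = 0.99998). The second probe set of Ddit3 disagreed with the first (r = -0.214 over 11 samples). With both probe sets averaged, radiation minus control became -0.27 and combined minus radiation 0.86, so no direction of Ddit3 is given. On the first probe set alone, single arrays left out moved radiation minus control to 0.18 without control 1, combined minus radiation to -0.24 without combined 3, and combined minus simvastatin to 0.0068 without combined 1 and 0.43 without simvastatin 2.

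The combined group was also set against controls. Combined minus control was 0.55 ± 0.26 (SE) for Cth and 0.76 ± 0.33 (SE) for Slc38a4, each with a limma adjusted p of 0.995. For Asns it was 0.32 ± 0.32 (SE), for Sesn2 0.41 ± 0.36 and for Chac1 -0.47 ± 0.37, with the same limma adjusted p. With single arrays left out, Slc38a4 was at 0.48 without control 1, Asns at 0.020 without control 1 and 0.69 without control 3, Sesn2 at 0.21 without combined 2 and 0.68 without control 3, and Chac1 at -0.15 without combined 3. The combined arrays lay wholly above controls for 1 of 7 tested members, Cth, and wholly below for 0, against 2.67% and 3.87% of all tested genes. These comparisons share their control arrays with radiation minus control and are not independent of it.

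**Figure D4:**
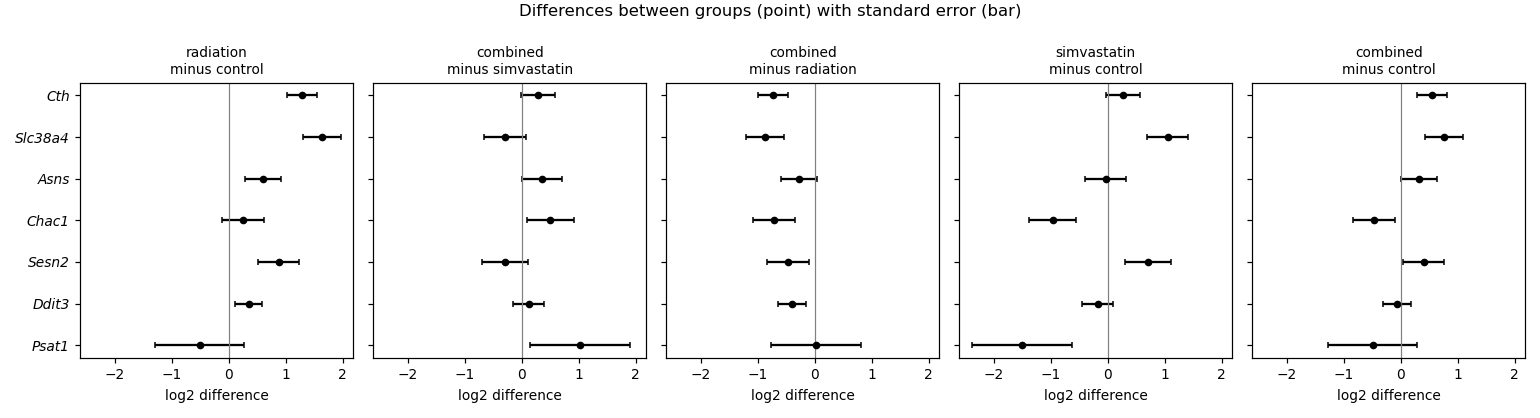
Log2 differences (horizontal axis) of the 7 tested genes in 5 comparisons, with points for the difference and bars for its standard error. Cth and Slc38a4 stand at 1.28 and 1.64 in radiation minus control, the comparison that chose them, and at 0.29 and -0.29 in combined minus simvastatin.

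Other genes of the pathway were counted in lists, none of which had a member called in any comparison. In radiation minus control the median of all genes was 0.084, with 60.3% of genes above 0, and it became 0.36 when arrays were centred on their medians. In combined minus simvastatin it was -0.0046, with 49.1% above 0. Most upstream, the eIF2α kinases and phosphatases had 4 of 8 genes above 0 after radiation and a median of 0.043, and 2 of 8 and -0.034 in combined minus simvastatin. Single arrays left out turned both, to -0.047 without radiation 3 and to 0.036 without combined 2. Eif2ak4, the amino acid sensor, was at 0.40 ± 0.21 (SE) after radiation, and Eif2ak3, the kinase that senses misfolded protein, at -0.26 ± 0.19 in combined minus simvastatin.

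All 7 tested genes of ATF4 and its partner transcription factors lay above 0 after radiation, with a median of 0.62. Cebpg, which pairs with ATF4, was at 0.62 ± 0.20 (SE; limma adjusted p = 0.751). On the single arrays the mean level of this list was 9.77 on control 1 and 10.95 to 11.45 on the other 11 arrays, and without control 1 the median was 0.13 with 4 of 7 above 0. In combined minus simvastatin 5 of 7 lay above 0, with a median of 0.095, or 0.013 without combined 1 and 0.16 without combined 3. Atf4 itself was at -0.17 ± 0.25 (SE; limma adjusted p = 0.99998) there.

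The 13 genes of the other arms of the unfolded protein response, which deal with misfolded protein in the endoplasmic reticulum, lay above 0 for 12 of 13 in radiation minus control, with a median of 0.42, or 0.23 without control 1 and 0.72 without control 3. Herpud1, which helps to clear such protein and is also an ATF4 target, was at 0.67 ± 0.19 (SE; limma adjusted p = 0.751). The mean level of this list was 10.69 to 10.93 on the combined arrays, 11.06 to 11.18 on the radiation arrays, 10.69 to 10.75 on the simvastatin arrays, and 10.34, 10.61 and 11.19 on the controls. Control 3 stood at the radiation level, as it did for Asns. In combined minus radiation 13 of 13 lay below 0, with a median of -0.31 against -0.092 for all genes, or -0.67 against -0.45 with centred arrays, and -0.19 without radiation 2. Of all genes only 37.4% lay above 0 in combined minus radiation, so a fall was common there. In combined minus simvastatin 9 of 13 lay above 0, with a median of 0.033, which was -0.054 with 5 of 13 above 0 with centred arrays and -0.014 with 6 of 13 without simvastatin 2.

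The serine and one-carbon enzymes, the neighbours of Psat1, lay below 0 for 8 of 8 genes after radiation, with a median of -0.33, and above 0 for 7 of 8 in combined minus simvastatin, with a median of 0.40. The second median was 0.24 with 6 of 8 above 0 without combined 1, 0.60 without combined 3, and 0.22 with 5 of 8 without simvastatin 1 and 3. Shmt1, which moves carbon from serine to folate, was at -0.72 ± 0.39 (SE; limma adjusted p = 0.751) after radiation, and the folate enzyme gene Aldh1l1 at 0.58 ± 0.38 (SE; limma adjusted p = 0.99998) in combined minus simvastatin. Without control 1 the radiation median was -0.087 with 3 of 8 above 0, without control 2 -0.68, and with centred arrays -0.054 with 3 of 8. In simvastatin minus control 8 of 8 lay below 0, with a median of -0.69, or -0.40 without control 1. Of all genes 49.6% lay above 0 in simvastatin minus control.

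Glutathione genes lay above 0 for 6 of 6 after radiation, with a median of 0.37, but for 3 of 6 with a median of 0.023 without control 1, and the median was 0.72 without control 3. Chac2, a relative of Chac1, was at 0.57 ± 0.28 (SE), and Oplah, which recycles glutathione breakdown products, at 0.32 ± 0.29 in combined minus simvastatin, where 4 of 6 lay above 0 with a median of 0.029, or 2 of 6 and -0.058 with centred arrays and 2 of 6 and -0.026 without combined 1.

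The methionine, transsulfuration and sulphide enzymes around Cth lay above 0 for 6 of 10 after radiation, with a median of 0.040, which was -0.078 without radiation 1. Mat1a, which makes the methyl donor from methionine, was at 1.78 ± 0.80 (SE; limma adjusted p = 0.751), with control 1 at 3.11 and the other 11 arrays at 6.00 to 7.85. Mat2b, of the same list, was at -0.33 ± 0.20 in combined minus simvastatin, where 7 of 10 lay above 0 with a median of 0.11, or 4 of 10 with -0.040 without simvastatin 2.

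The amino acid transporters around Slc38a4 lay above 0 for 8 of 13 after radiation, with a median of 0.11, and for 6 of 13 in combined minus simvastatin, with a median of -0.0090. Without control 1 the first median was 0.063, without control 3 it was 0.24, and without simvastatin 1 the second was 0.015. The arginine transporter gene Slc7a2 was at 0.58 ± 0.33 (SE) after radiation and the glutamine transporter gene Slc1a5 at 0.46 ± 0.28 in combined minus simvastatin. The aminoacyl-tRNA synthetases, which load amino acids on transfer RNA, lay above 0 for 7 of 12 with a median of 0.022 and for 10 of 12 with a median of 0.15 in the same comparisons. The first was -0.018 without control 2 and the second 0.090 without simvastatin 2. Among them Vars was at -0.36 ± 0.29 (SE) after radiation and Eprs at 0.42 ± 0.23 in combined minus simvastatin.

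Other synthesis enzymes lay above 0 for 5 of 7 with a median of 0.29 after radiation, but for 3 of 7 with a median of -0.22 without control 2. In combined minus simvastatin they lay above 0 for 6 of 7 with a median of 0.33, or 0.14 without simvastatin 2. The glutamine synthetase gene Glul was at 0.46 ± 0.18 (SE) after radiation and Got2 of aspartate synthesis at 0.37 ± 0.24 in combined minus simvastatin. Secreted and growth-braking targets of ATF4 lay above 0 for 4 of 6 after radiation with a median of 0.25, which was 0.059 without radiation 1, 0.12 without control 1, and -0.14 with 2 of 6 above 0 without control 3, radiation 1 and radiation 2. In combined minus simvastatin 2 of 6 lay above 0 with a median of -0.024, which was 0.075 without simvastatin 2 and 0.012 with 12 arrays as samples. Sesn3, a relative of Sesn2, was at -0.43 ± 0.22 (SE) after radiation, and the translation repressor gene Eif4ebp1 at 0.45 ± 0.37 in combined minus simvastatin.

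**Figure D5:**
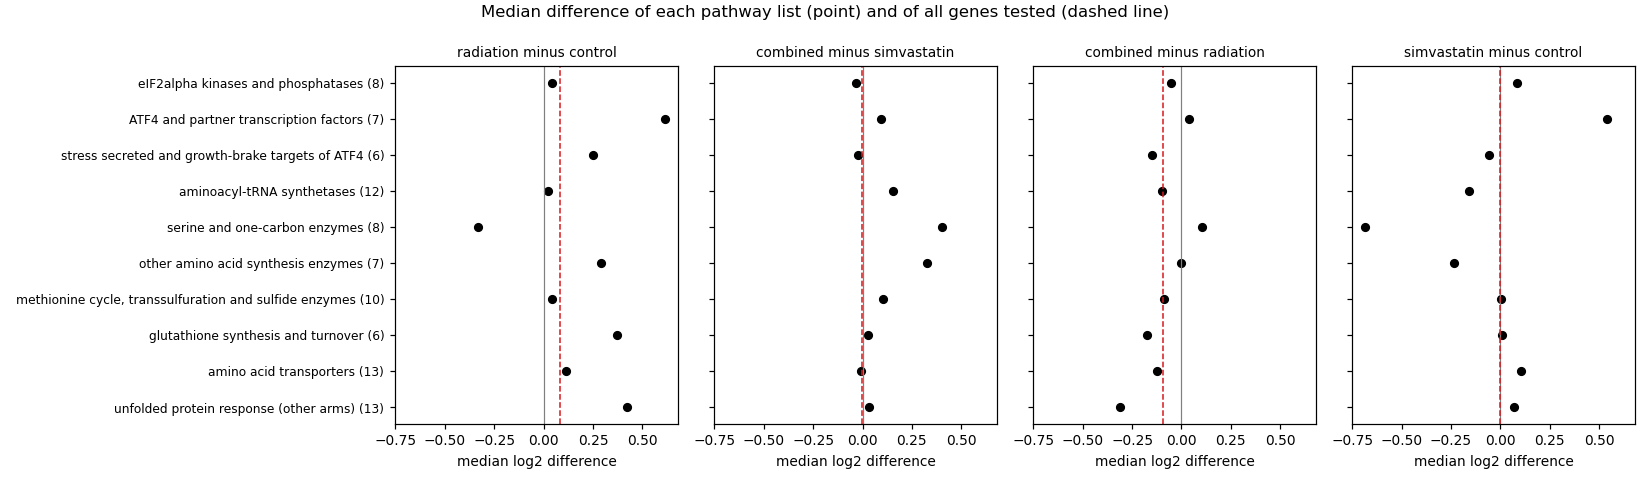
Median log2 difference (horizontal axis) of each of 10 pathway lists in 4 comparisons, with the number of tested genes in brackets; points are lists and the dashed line is the median of all 11606 genes. ATF4 and its partners lie furthest right in radiation minus control at 0.62, and serine and one-carbon enzymes furthest left at -0.33, or at 0.13 and -0.087 without control 1.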

How the data were processed

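Lung RNA of 12 mouse samples was measured on Affymetrix arrays. The deposited table holds log2 intensities of 45101 probe sets; MAS5 and GCRMA are named per the submitters' processing notes, with order and versions not given in the sources used here. Groups came from the sample titles. Control probe sets (64) were left out, and 34945 probe sets with 1 symbol were used, 34741 of them matched to RefSeq by Entrez identifier. limma 3.58.1 in R 4.3.3 (lmFit, eBayes with trend, group means, 7 residual degrees of freedom) was fitted over all genes, two-sided, with Benjamini-Hochberg adjustment, and was run on simulated data. That run required most large changes to be called only at a spread smaller than the real one. It does not show which changes could be detected in these arrays. Probe sets ending in _x_at or _s_at (Asns, Cbs, Psat1) can bind related transcripts. The number of arrays limits the precision. Members, lists and the averaging of simvastatin 1 and 3 were chosen with earlier results of these data known. Named were all members, for each pathway list the gene of lowest p in radiation minus control and in combined minus simvastatin, and for likeness the 3 genes of highest r. The rule also covers the genes of highest mean and of widest range in each marker list, of which Scgb1a1, Rtkn2, Alb and Rag1 are printed. Cdkn1a, Phgdh and Aoc1 were chosen after their values were seen. Marker lists for muscle, squamous epithelium, fat, ciliated cells and macrophages were measured, and their levels are given in the closing section. Alternatives covered the filter, centring, quantile normalization, 12 arrays as samples, averaged probe sets, a floor, a replicate block and arrays left out.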

Additional observations from a re-analysis of the deposited data

How the results depend on the processing

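Of 132 recomputed counts of called genes 127 were 0, as reported. Without control 3, 1 gene, Aoc1, was called in radiation minus control, in combined minus control and in the interaction, so the range over single arrays left out was 0 to 1. Without control 3, combined 3 and simvastatin 2 together, a choice made after seeing the data, 9 genes were called in radiation minus control and 2 in combined minus control, and none was a member. Of 814 recomputed member differences 787 kept their direction, none was called, and the lowest adjusted p was 0.0989. Many of the 787 kept it by design, because leaving out an array of a group outside a comparison leaves its difference unchanged. The other 27 changed sign, and the cause was not tested. With all kept probe sets averaged, Ddit3 was at -0.27 in radiation minus control, 0.86 in combined minus radiation, 0.27 in simvastatin minus control and 0.58 in combined minus control. Without control 3, radiation 1 and radiation 2, Chac1 was at -0.11 in radiation minus control, Asns at 0.33 in simvastatin minus control and Ddit3 at 0.052 in combined minus control. Leaving out control 3, combined 3 and simvastatin 2 left the average of simvastatin 1 and 3 as the only simvastatin sample. There Sesn2 was at 0.45 in combined minus simvastatin, Asns at 0.16 in simvastatin minus control, and Ddit3 at 0.22 and Psat1 at 0.016 in combined minus control. Without simvastatin 1 and 3, which leaves a lone array assumed to vary like the others, Ddit3 was at -0.19 in combined minus simvastatin and 0.13 in simvastatin minus control, and Asns at 0.14 in simvastatin minus control. Psat1 was at -0.34 in combined minus radiation with centred arrays, and Asns at 0.00072 in simvastatin minus control with quantile normalization. With single arrays left out, Psat1 ranged over -1.05 to 0.29 in radiation minus control, -0.53 to 0.79 in combined minus radiation and -1.04 to 0.31 in combined minus control, Sesn2 over -0.49 to 0.22 in combined minus simvastatin, Asns over -0.34 to 0.33 in simvastatin minus control and Ddit3 over -0.23 to 0.11 in combined minus control. Deviations of same-numbered arrays, each array counted separately, had a median r of 0.0614 over 18 pairs, with a range of -0.259 to 0.408. Arrays of different numbers had a median r of -0.0372 over 36 pairs, with a range of -0.521 to 0.423. The ranges overlapped, and near-identical arrays fell in both classes, combined 3 with simvastatin 3 and with simvastatin 1. This check therefore cannot decide whether the numbers pair the samples. With a replicate block the count was 0 in every comparison.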

Other observations

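Some arrays held markers of tissue other than lung, beside which the member values above can be read. Skeletal muscle genes, 8 of 8 measured, averaged 4.58 to 12.45 on the combined arrays, 4.35 to 11.46 on the radiation arrays, 4.02 to 4.65 on the simvastatin arrays and 10.03 to 11.84 on the controls. Squamous epithelium genes, 7 of 8, averaged 3.40 to 11.46, 3.35 to 9.06, 3.27 to 3.46 and 5.20 to 11.15 in the same order of groups, and fat genes, 6 of 8, averaged 5.64 to 9.58, 5.25 to 6.97, 5.10 to 5.78 and 3.61 to 9.45. Ciliated cell genes, 6 of 6, averaged 9.66 to 10.39, 9.87 to 10.25, 9.50 to 10.36 and 8.19 to 10.24, and macrophage genes, 6 of 6, averaged 8.18 to 9.36, 7.83 to 8.86, 8.00 to 8.59 and 8.10 to 8.61. Their part in the level of any member was not tested.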
